A study of Mus musculus with 2 samples.

Results

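The collagen chain genes of the mouse ovary are described here, chosen as every gene whose probe set annotation named that gene alone and whose symbol had the form of a collagen chain, such as Col1a1. There were 42 such genes among 18193 named genes, read by 82 of the 45101 probe sets of the array. The ovaries came from wild type CD-1 mice, 24 to 28 days old, that all received 5 IU of pregnant mare serum gonadotropin, which grows a cohort of follicles, and 5 IU of human chorionic gonadotropin 48 h later, which starts ovulation. One sample was from mice given ulipristal acetate 2 h after the second hormone, and the other from mice given the oil vehicle at that time. Ulipristal acetate, which the labels also call CDB, binds the progesterone receptor and limits its action. Ovaries were collected at 11 h, and the labels say neither from which injection that time runs nor how many mice each sample pools. Each treatment had 1 whole-genome Affymetrix array, so no test, p-value or spread between animals can be given, and every value below is a difference between these 2 samples.

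Collagens are the main structural proteins of the extracellular matrix, and each molecule is a triple helix of 3 chains. Fibrillar collagens build the cable-like fibrils of connective tissue, which give the ovarian stroma, the theca and the follicle wall their tensile strength. Basement membrane (type IV) collagens form sheets, among them the basal lamina between granulosa and theca cells. FACIT collagens (fibril-associated collagens with interrupted triple helices) sit on the surface of fibrils, and the remaining types form beaded filaments, short-chain networks, anchoring fibrils or chains that span the cell membrane. At ovulation the matrix at the apex of the follicle is broken down so that the oocyte can leave, and the comparison asks how the collagen messages stand in ovaries with and without the drug during that response.

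Signals are MAS5 values in arbitrary units, scaled so that the mean without the lowest and highest values was 150.001 on both arrays. For each gene the brightest probe set, by mean log2 signal, was taken as representative, and the gene counted as measured where that mean reached a signal of 30.8, the median of all probe sets other than controls. Of the 42 collagen genes 30 were measured, as were 11364 of all named genes. The filter took the mean of both arrays, and for 29 of the 30 genes both signals were at or above 30.8. The exception was Col26a1, whose vehicle signal lay under it. The nearest gene outside was Col17a1 at 27.2 on the ulipristal array and 32.6 on the vehicle array, and the nearest inside was Col26a1 at 37.4 on the ulipristal array and 27.0 on the vehicle array. Ovarian identity was visible in both samples, for instance in the oocyte coat gene Zp3 (301 with ulipristal, 211 with vehicle) and the granulosa factor Foxl2 (1597 with ulipristal, 940.1 with vehicle).

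Most measured collagen genes had a higher signal on the ulipristal array, by small amounts. Of the 30 genes 23 had a log2 ratio of ulipristal over vehicle above 0 (background over all measured genes, 60.0%) and 7 below 0, and the median log2 ratio was 0.30 against 0.09 over all measured genes. Centring each array on its median lowered every ratio by 0.13, to a median of 0.17 for collagen genes and -0.04 for all genes. It left 17 of the 30 collagen genes above 0, against 45.4% of all genes. After quantile normalization 22 of the 30 were above 0 (background 56.5%), with a median of 0.32 against 0.05 over all genes. After lowess centring 22 were above 0 (background 54.8%), with a median of 0.32 against 0.04. At least 1.5-fold higher were 8 collagen genes, Col5a3, Col4a6, Col14a1, Col20a1, Col6a1, Col6a4, Col8a2 and Col15a1 (background 12.3%). At least 1.5-fold lower were 2, Col12a1 and Col13a1 (background 4.58%). Past 2-fold lay 1 higher gene, Col5a3 (background 3.34%), and 0 lower genes (background 1.56%). Col5a3 was under 2-fold after median centring, quantile normalization or lowess centring and with 50 added to every signal. Median centring left 5 genes at least 1.5-fold higher, without Col4a6, Col8a2 and Col15a1, against 7.98% of all genes. The other 20 lay within 1.5-fold in either direction. With 1 array per treatment, a difference in the number of matrix-producing cells and a difference in collagen RNA per cell cannot be told apart in these whole ovaries.

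The only spread that can be taken within these samples is the disagreement between probe sets of the same gene. It is read on the same 2 arrays. It thus holds no variation between animals or arrays and is not an error of the treatment difference. Over the 4955 genes with more than 1 measured probe set, the median SD of the log2 ratio between probe sets was 0.26, and over the 18 such collagen genes it was 0.21. Set beside that probe set spread, 11 of the 30 collagen ratios were smaller than 0.26 on the log2 scale. Of the others, 16 were larger and higher, and 3 were larger and lower. As background, 32.0% of all measured genes had a ratio above that of Col6a3, the smallest of the 16 (0.27). A share of 84.7% had a ratio above that of Col4a2, the smallest of the 3 in size (-0.27). The smaller ratios included those of Col1a2 and Col3a1, which encode chains of the most abundant fibrils. All measured probe sets pointed one way in 14 of the 18 genes, upward in 11 and downward in 3 (Col8a1, Col11a1 and Col12a1). The share over the 4955 genes was not determined, so this count cannot be set against a background. Over single probe sets, 40 of the 52 measured were above 0 (background 57.5%), 17 were at least 1.5-fold higher (background 12.4%) and 2 at least 1.5-fold lower (background 6.37%). Past 2-fold were 4 higher (background 3.20%), on Col1a1, Col4a6, Col5a3 and Col6a2, and 0 lower (background 2.02%).

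**Figure D1:**
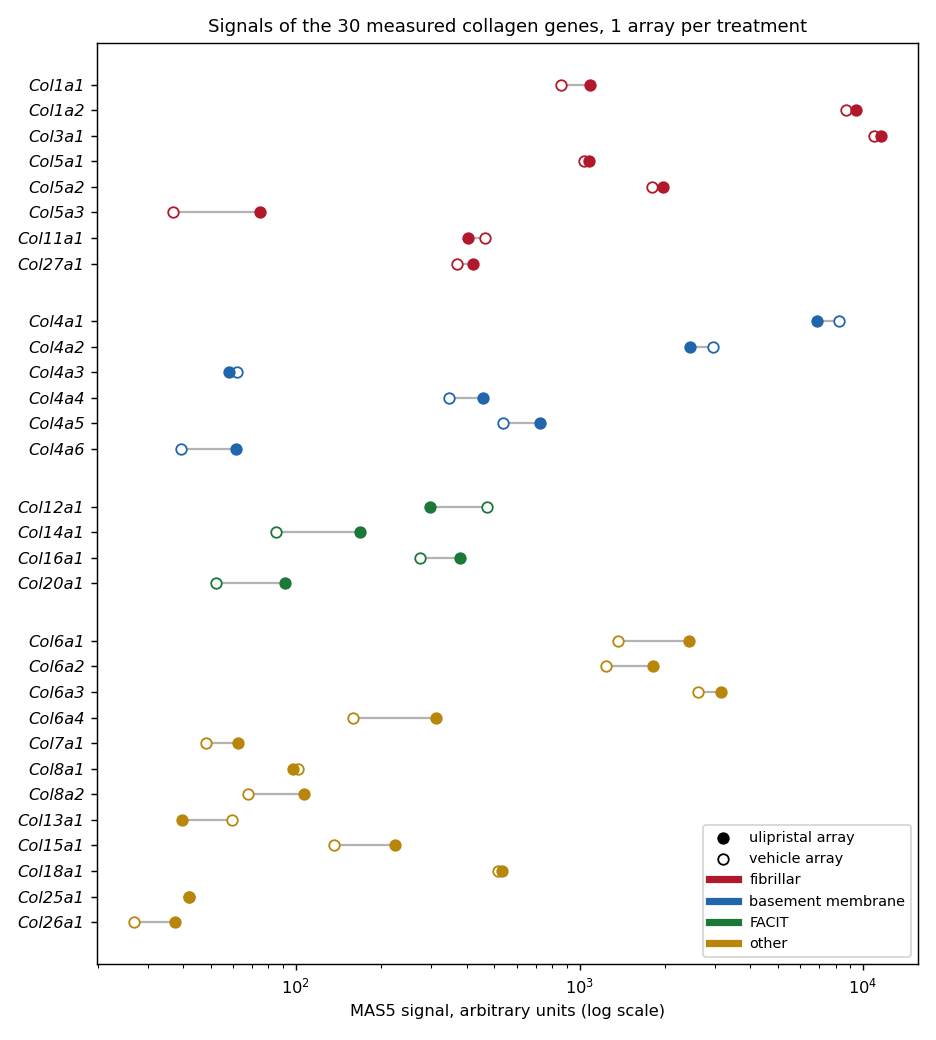
MAS5 signal (arbitrary units, log scale) of the representative probe set of each of the 30 measured collagen genes, grouped by collagen type. Filled circles are the ulipristal array and open circles the vehicle array, 1 array each. The filled circle lies to the right of the open one for 23 genes, with Col6a1, Col6a4, Col14a1 and Col5a3 among the wide gaps, and to its left for 7.

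The ratio of all genes shifted with signal, so bright and dim collagen genes are read against different backgrounds. Among genes with a mean signal at or above 154.0, the 75th percentile of probe sets, the median log2 ratio was 0.19 for 19 collagen genes and 0.03 for all 7058 genes. Of those 19, 15 were above 0 (background 53.4%), 3 at least 1.5-fold higher (background 5.89%) and 1 at least 1.5-fold lower (background 4.09%). Past 2-fold were 0 higher (background 0.822%) and 0 lower (background 1.43%). Among dimmer measured genes the median was 0.47 for 11 collagen genes and 0.24 for all 4306 genes. Of those 11, 8 were above 0 (background 70.8%), 5 at least 1.5-fold higher (background 22.9%) and 1 at least 1.5-fold lower (background 5.36%). Past 2-fold were 1 higher (background 7.48%) and 0 lower (background 1.76%). The collagen median lay above the background median in both ranges of signal.

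**Figure D2:**
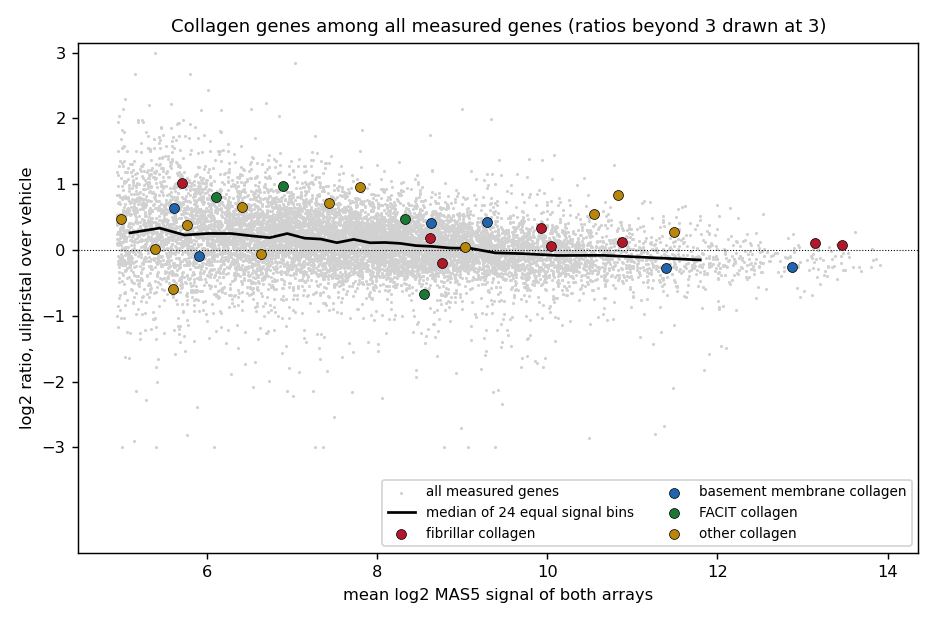
Log2 ratio of ulipristal over vehicle against the mean log2 MAS5 signal of both arrays, for all 11364 measured genes (grey) and the 30 measured collagen genes (coloured by type). The black line joins the medians of equal bins of signal and slopes downward, while the bright type VI chains (yellow, right) lie above it and the bright pair Col4a1 and Col4a2 (blue, right) lie below 0. Ratios beyond 3 in either direction are drawn at 3.

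Fibrillar collagens as a group differed little between the samples. Of 11 genes 8 were measured, 7 of them above 0 (background 60.0%) and 1 below, and their median log2 ratio was 0.12. It was -0.02 after median centring (-0.04 over all genes), which put Col1a2, Col3a1, Col5a1 and Col5a2 below 0. It was 0.24 after quantile normalization, after lowess centring and with the median over probe sets. After quantile normalization Col1a2 had a log2 ratio of 0.29 and Col3a1 of 0.26, against a median of 0.05 over all genes. Col1a1, which encodes the chain present in 2 copies in type I collagen, read 1092 with ulipristal and 864 with vehicle on its representative probe set, 1.26-fold higher. Its other probe set read 1708 with ulipristal and 452 with vehicle, 3.78-fold higher. Both probe sets of Col1a1 were thus higher on the ulipristal array, with log2 ratios of 0.34 and 1.92 that differ far more than those of a usual gene. Col1a2, the partner chain of type I, read 9402 with ulipristal and 8719 with vehicle, 1.08-fold higher, and over its 3 probe sets the log2 ratio was 0.11, 0.32 and 0.58. Col3a1, whose type III fibrils are common in soft and vascular tissue, read 11575 with ulipristal and 10930.1 with vehicle. Its second probe set read 1341.8 and 1342.8, so no difference was seen there.

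The type V chains, which nucleate type I fibrils and set their diameter, followed the same pattern. Col5a1 read 1078 with ulipristal and 1037 with vehicle, and its log2 ratios were 0.06, 0.47 and 0.999 from the brightest to the dimmest of its 3 probe sets. Col5a2 read 1965 with ulipristal and 1802 with vehicle, 1.09-fold higher, and its second probe set had a log2 ratio of -0.01. The third type V chain, Col5a3, read 74.6 with ulipristal and 36.8 with vehicle, 2.03-fold higher, on 1 measured probe set at low signal. Col11a1, a chain of the related type XI that is best known from cartilage, was the single fibrillar gene below 0, at 406 with ulipristal and 464 with vehicle (1.14-fold lower). Both of its probe sets were lower, by log2 ratios of -0.19 and -0.39. Col27a1, a fibrillar collagen of cartilage matrix, read 421 with ulipristal and 370.0 with vehicle. The fibrillar genes Col2a1, Col11a2 and Col24a1 were too dim to be measured, with signals of 0.79 to 22.5 on the ulipristal array and 1.10 to 19.95 on the vehicle array.

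The 300-base promoter windows of 4 chains are printed here from RefSeq (GRCm38.p6), each running from 250 bases before the gene start to 50 after it, to set a near-equal gene, the neighbouring type IV pair described next and a type VI chain of clearly higher signal beside each other. The windows show the type I chain Col1a2 (chr6:4505368-4505667, plus strand), the divergent pair Col4a1 (chr8:11312777-11313076, minus strand) and Col4a2 (chr8:11312555-11312854, plus strand), and the type VI chain Col6a1 (chr10:76725995-76726294, minus strand). Capitals mark every match, on either strand, to the CCAAT box (CCAAT), the GC box (GGGCGG), the TATA box (TATAAA), the AP-1 element (TGANTCA) and the progesterone and glucocorticoid receptor half-site (AGAACA), and no match to one motif overlaps a match to another.
Col1a2: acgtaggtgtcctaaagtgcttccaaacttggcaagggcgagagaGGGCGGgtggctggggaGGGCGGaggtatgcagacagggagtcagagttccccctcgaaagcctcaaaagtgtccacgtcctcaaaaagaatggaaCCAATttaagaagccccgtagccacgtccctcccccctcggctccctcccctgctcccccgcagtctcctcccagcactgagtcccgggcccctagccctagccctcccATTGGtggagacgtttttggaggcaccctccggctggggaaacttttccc
Col4a1: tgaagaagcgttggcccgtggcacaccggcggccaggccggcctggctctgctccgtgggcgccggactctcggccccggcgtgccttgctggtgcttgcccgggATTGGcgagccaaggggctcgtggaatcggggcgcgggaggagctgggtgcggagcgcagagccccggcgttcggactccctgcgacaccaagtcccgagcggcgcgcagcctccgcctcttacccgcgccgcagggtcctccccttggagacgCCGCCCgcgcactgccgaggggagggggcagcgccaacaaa
Col4a2: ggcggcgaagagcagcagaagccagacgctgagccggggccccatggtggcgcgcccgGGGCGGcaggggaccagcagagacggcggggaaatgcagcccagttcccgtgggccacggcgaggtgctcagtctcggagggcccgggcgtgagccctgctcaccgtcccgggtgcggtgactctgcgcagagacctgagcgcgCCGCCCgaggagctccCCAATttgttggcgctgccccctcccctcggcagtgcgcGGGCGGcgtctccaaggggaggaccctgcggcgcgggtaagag
Col6a1: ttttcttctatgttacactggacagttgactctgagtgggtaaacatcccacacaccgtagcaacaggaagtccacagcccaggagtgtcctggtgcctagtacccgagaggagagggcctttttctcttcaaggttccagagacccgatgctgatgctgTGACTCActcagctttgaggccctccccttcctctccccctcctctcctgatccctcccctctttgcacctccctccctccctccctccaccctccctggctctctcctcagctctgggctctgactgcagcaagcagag
Col1a2 has CCAAT matches 109 bases before its start and directly at it, and GGGCGG matches 205 and 188 bases before it. Col4a1 and Col4a2 lie head to head, with starts 21 bases apart and, by these coordinates, overlapping 5′ ends. Their windows share 78 bases. Each has a CCAAT match, 145 bases before the start of Col4a1 and 32 before that of Col4a2, and GGGCGG matches, 1 in the window of Col4a1 and 3 in that of Col4a2. The Col4a1 GGGCGG match and 1 of those of Col4a2 are the same site, in the shared bases. Col6a1 has 1 AP-1 match, which reads alike on both strands, 90 bases before its start, and a match to none of the other motifs. The promoter table held 33 of the 42 collagen genes, with 36 windows. GGGCGG occurred in 22 of these 36 windows and in 35.7% of all 32851 windows of the same length, CCAAT in 13 and in 37.4%, and TATAAA in 5 and in 13.6%. TGANTCA occurred in 1 collagen window and in 7.81% of all windows, and AGAACA in 2 and in 19.0%. These are matches of letters in short windows, and no factor's binding was measured.

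The basement membrane chains went both ways. All 6 type IV genes were measured, 3 above 0 (background 60.0%) and 3 below, with a median log2 ratio of 0.16. Col4a1 and Col4a2, which form the common trimer of basement membranes, were lower on their representative probe sets. Col4a1 read 6879 with ulipristal and 8199 with vehicle (1.19-fold lower), and Col4a2 read 2452 with ulipristal and 2966 with vehicle (1.21-fold lower). The log2 ratios of these 2 neighbours, -0.25 and -0.27, differed by 0.02. The second probe set of Col4a1 went the other way, at 2577 with ulipristal and 1487 with vehicle (1.73-fold higher), so the direction of Col4a1 depends on the probe set, and Col4a2 has only 1. Col4a3, Col4a4 and Col4a5 form the trimer of specialised basement membranes such as that of the kidney glomerulus. Col4a4 read 458 with ulipristal and 346 with vehicle (1.32-fold higher), and its 3 probe sets ran from 0.04 to 0.69 on the log2 scale. Col4a5 read 725 with ulipristal and 539 with vehicle (1.34-fold higher), and its second probe set was 1.67-fold higher. Col4a3 was dim and near equal, at 58.2 with ulipristal and 61.8 with vehicle, and its second probe set was slightly higher, at 53.0 with ulipristal and 49.4 with vehicle. Col4a6, which pairs with the Col4a5 chain in another trimer, read 61.2 with ulipristal and 39.3 with vehicle (1.56-fold higher), and 70.1 and 33.3 on its second probe set (2.10-fold higher).

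**Figure D3:**
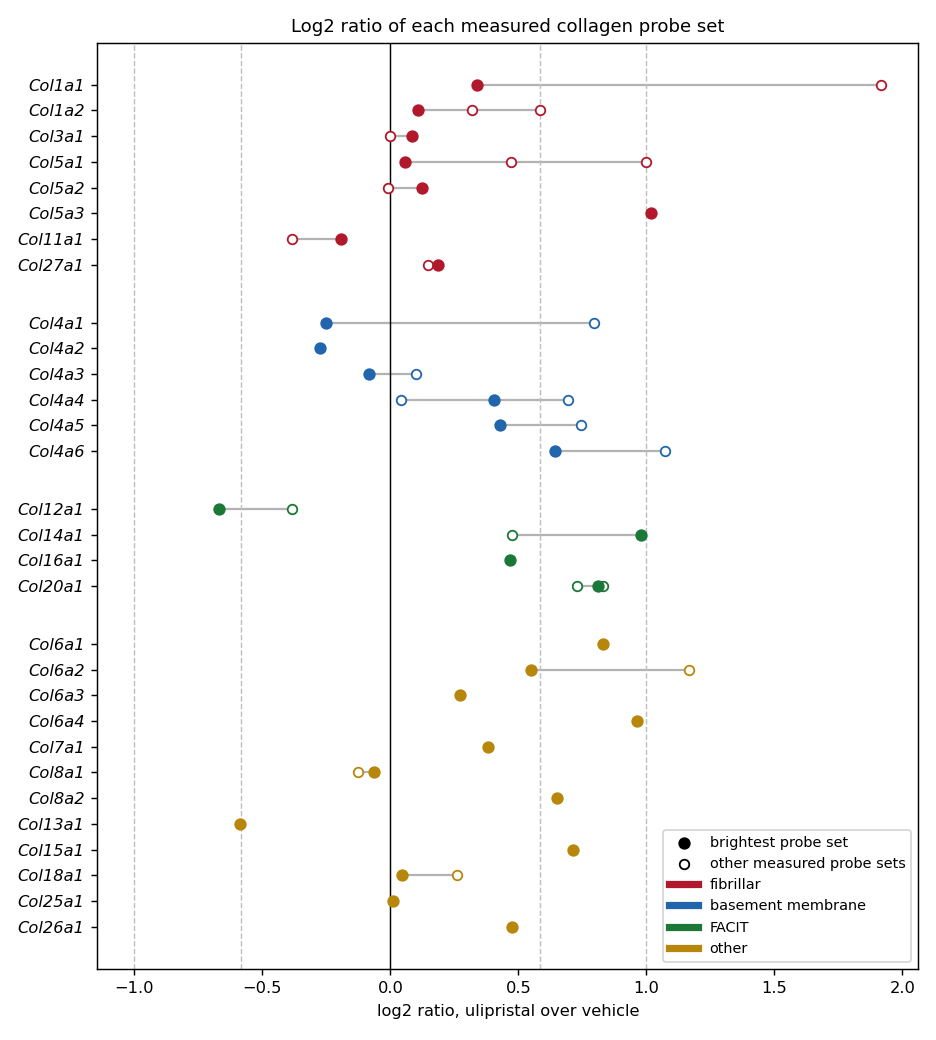
Log2 ratio of ulipristal over vehicle (horizontal axis) for each of the 52 measured probe sets of the 30 measured collagen genes. Filled circles are the representative probe set, open circles the others, grey lines join probe sets of a gene, and dashed lines mark 1.5-fold and 2-fold. The spread within Col1a1 (0.34 to 1.92) and Col4a1 (-0.25 to 0.79) stands out, whereas the 3 measured probe sets of Col20a1 lie between 0.73 and 0.83.

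In many collagen genes the dimmer probe sets had the higher ratio. The dimmest measured probe set had a higher ratio than the brightest in 12 of the 18 collagen genes with more than 1, and in 55.2% of the 4955 genes of that kind. The median difference, dimmest minus brightest, was 0.25 on the log2 scale for the collagen genes and 0.06 for all such genes. RNA coverage along the transcript also differed between the samples. The ratio of 3′ to 5′ control signal was 0.866 with ulipristal and 1.204 with vehicle for Gapdh, and 1.87 with ulipristal and 2.40 with vehicle for Actb, so the 5′ ends were relatively brighter on the ulipristal array. The position of each collagen probe set in its transcript was not analysed here, and the part of this difference in the split results of Col1a1, Col4a1, Col5a1 and Col6a2 was not tested.

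FACIT collagens went both ways and held some of the larger ratios among the collagens. Of 9 genes 4 were measured, 3 above 0 (background 60.0%) and 1 below, with a median log2 ratio of 0.64. With the filter at the 75th percentile of signal, which leaves only Col12a1 and Col16a1, the median was -0.10. Col12a1, which encodes a long bridging collagen of dense connective tissue and fibril surfaces, was the lowest of all measured collagen genes, at 298 with ulipristal and 474 with vehicle (1.59-fold lower). Its second measured probe set was also lower, at 53.1 with ulipristal and 69.3 with vehicle (1.31-fold lower). Col14a1, the close relative of Col12a1 that also sits on fibrils, differed in the opposite direction, at 168 with ulipristal and 85.3 with vehicle (1.97-fold higher). A dimmer Col14a1 probe set was 1.39-fold higher. Col16a1, a minor fibril-associated chain, read 379 with ulipristal and 274 with vehicle (1.38-fold higher). Col20a1 read 91.6 with ulipristal and 52.2 with vehicle (1.75-fold higher). The log2 ratio was 0.81, 0.73 and 0.83 on its 3 measured probe sets, although 2 of them were built from the same sequence record and are not separate evidence. Another Col20a1 probe set, too dim to be measured, read 30.5 with ulipristal and 25.4 with vehicle (log2 ratio 0.26). The genes Col9a1, Col9a2, Col9a3, Col19a1 and Col22a1 were too dim, with signals of 11.5 to 20.01 on the ulipristal array and 1.45 to 21.0 on the vehicle array, so the type IX trimer could not be read at all.

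Type VI collagen, the beaded filament that links fibrils to cells, was higher in all 4 of its measured chains (background 60.0%). Col6a1, Col6a3 and Col6a4 had 1 measured probe set each. The median log2 ratio of the 4 chains was 0.69, and 0.56 after median centring. Col6a1 read 2436 with ulipristal and 1368 with vehicle (1.78-fold higher). Col6a2, its neighbour on the chromosome, read 1819.8 with ulipristal and 1244 with vehicle (1.46-fold higher), and 921 and 410.0 on a second probe set (2.25-fold higher) whose design can bind other transcripts. Col6a3, the largest chain of the trimer, read 3157 with ulipristal and 2616 with vehicle (1.21-fold higher). The log2 ratios of these 3 partner chains spanned 0.56, from 0.27 for Col6a3 to 0.83 for Col6a1, against a span of 0.07 for the type V partners Col5a1 and Col5a2 and 0.23 for the type I partners. Col6a4, a chain that can take the place of Col6a3, read 311 with ulipristal and 159.6 with vehicle (1.95-fold higher). A second Col6a4 probe set was too dim to be measured and went the other way, at 1.91 with ulipristal and 11.1 with vehicle. Of all measured collagen genes only Col6a1, Col6a4 and Col14a1 stayed at least 1.5-fold higher under every processing alternative that measured them (10, 10 and 9 alternatives). Several alternatives could not change these ratios, so their number is not a measure of support. Changes of floor or filter left the ratios as they were. As Col6a1 and Col6a4 have 1 measured probe set each, the choice of probe set could not change them either. The share of all genes that stayed so is not given. Col6a5 was too dim to be read, at 3.16 with ulipristal and 0.985 with vehicle.

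The other minor collagens went both ways, most of them at low signal. Over all 16 genes of this remaining type, type VI included, 12 were measured, with 10 above 0 (background 60.0%), 2 below and a median log2 ratio of 0.43. Col15a1 and Col18a1 encode the multiplexins, which lie in basement membrane zones around vessels and other cells. Col15a1 read 223 with ulipristal and 136 with vehicle (1.64-fold higher), while Col18a1, the precursor of the antiangiogenic fragment endostatin, read 532 with ulipristal and 515 with vehicle, a ratio that was below 0 after median centring. Col8a2 read 107 with ulipristal and 68.0 with vehicle (1.57-fold higher), yet its short-chain network partner Col8a1 was near equal at 97.3 with ulipristal and 102 with vehicle. The log2 ratios of these type VIII partners differed by 0.72, the widest gap among the 6 trimers with more than 1 measured chain. Col7a1, the chain of anchoring fibrils beneath epithelia, read 62.5 with ulipristal and 48.0 with vehicle (1.30-fold higher). Col26a1, a chain first described in mouse testis and ovary, read 37.4 with ulipristal and 27.0 with vehicle (1.39-fold higher), at the edge of what was measured. The membrane-spanning Col13a1 was lower, at 39.6 with ulipristal and 59.6 with vehicle (1.504-fold lower), and the membrane-spanning Col25a1 was equal, at 42.1 with ulipristal and 41.8 with vehicle. The mean signals of Col10a1, Col17a1 and Col23a1 were under the filter, with values from 0.88 to 27.2 on the ulipristal array and from 0.549 to 32.6 on the vehicle array.

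Genes that process collagen chains did not stand far from the background. Before they leave the cell, the chains are hydroxylated, glycosylated and folded with the help of chaperones, and outside it they are trimmed and cross-linked. Of 34 listed genes 30 had a probe set and 25 were measured, 18 above 0 (background 60.0%) and 7 below. Their median log2 ratio was 0.18 against 0.09 over all genes. After median centring 13 were above 0 (background 45.4%), with a median of 0.05 against -0.04 over all genes. At least 1.5-fold higher were 3 (background 12.3%) and lower 1 (background 4.58%). The 3 higher genes were named after their values were seen. The highest was Colgalt2, which adds galactose to hydroxylysine, at 133.8 with ulipristal and 67.3 with vehicle (1.99-fold higher). Plod3 and Plod1, lysyl hydroxylases, were 1.71-fold and 1.51-fold higher. Adamts3, a protease that removes the amino-terminal propeptide of fibrillar procollagens, was the 1 member past 2-fold (background 1.56% lower). It read 83.1 with ulipristal and 169 with vehicle (2.04-fold lower).

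Receptors and breakdown genes had medians below 0, whose sign depended on the probe sets taken or on the normalization. Of 11 listed collagen receptors 6 were measured, 2 above 0 (background 60.0%) and 4 below, with a median log2 ratio of -0.26, but 0.24 with the median over probe sets. Itga2, the alpha subunit of a collagen-binding integrin, read 35.5 with ulipristal and 72.9 with vehicle (2.05-fold lower, at low signal). It was the 1 receptor past 2-fold (background 1.56% lower). Of 12 listed genes of collagen breakdown, inhibitors included, 8 were measured, 3 above 0 (background 60.0%) and 5 below. Their median was -0.04, which was 0.04 after quantile normalization, and 0 were past 2-fold (background 3.34% higher and 1.56% lower). Ctsk, the lysosomal protease that cuts collagen in bone, had the highest ratio at 127.9 with ulipristal and 89.9 with vehicle (1.42-fold higher). Timp1, an inhibitor of matrix metalloproteinases, had the lowest at 2473 with ulipristal and 4060.1 with vehicle (1.64-fold lower). Genes of matrix partners of collagen, such as small proteoglycans, nidogens and laminins, had 26 of 27 members measured, 20 above 0 (background 60.0%) and 6 below, a median of 0.24, 7 at least 1.5-fold higher (background 12.3%) and 0 past 2-fold (background 3.34% higher and 1.56% lower). After median centring 16 were above 0 (background 45.4%), with a median of 0.10 against -0.04 over all genes. The highest was Comp, a matrix protein that binds fibrils, at 229 with ulipristal and 119.6 with vehicle (1.91-fold higher). The lowest was Thbs1, the matrix glycoprotein thrombospondin 1, at 1123 with ulipristal and 1421 with vehicle (1.27-fold lower).

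**Figure D4:**
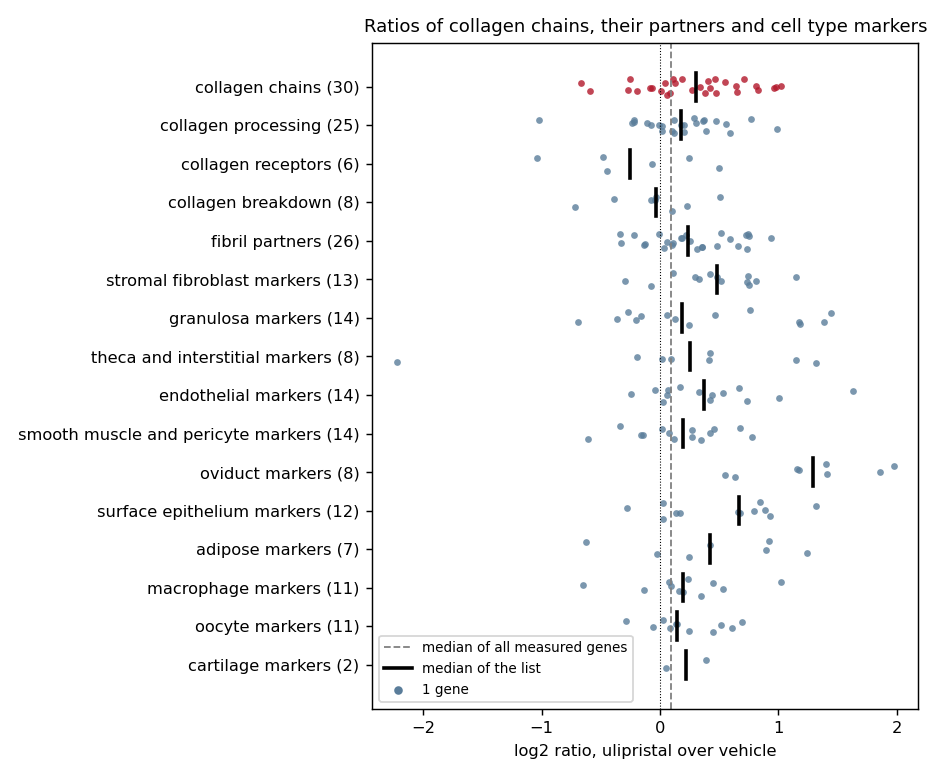
Log2 ratio of ulipristal over vehicle of each measured gene (points) in the collagen chains, 4 lists of collagen-related genes and 11 lists of cell type markers, with the number measured in brackets. Black bars are list medians and the dashed line is the median of all measured genes (0.09). Collagen chains (0.30) lie between the theca and interstitial markers (0.25) and the endothelial markers (0.37), and the oviduct markers lie highest (1.29).

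Markers of the cell types that make or accompany collagen also differed between the whole ovaries. Their counts stand against a background of 60.0% of all measured genes above 0, 3.34% past 2-fold higher and 1.56% past 2-fold lower. Median centring lowered each of these list medians by 0.13. Over all measured genes it left a median of -0.04 and 45.4% above 0. The centred medians were 0.12 for theca and interstitial, 0.06 for smooth muscle and for macrophage, 0.05 for granulosa and 0.01 for oocyte markers. Their counts above 0 were then 4 of 8, 7 of 14, 7 of 11, 7 of 14 and 7 of 11. Stromal fibroblast markers then had a median of 0.35 with 10 of 13 above 0, and endothelial markers 0.24 with 9 of 14. Surface epithelium markers had 0.54 with 9 of 12, and adipose markers 0.29 with 5 of 7. Oviduct markers had 1.16 with 8 of 8, and cartilage markers 0.09 with 1 of 2. Signals are summed over every gene of a list with a probe set. Stromal fibroblast markers had 11 of 13 measured members above 0, a median log2 ratio of 0.48 and a summed signal of 17145 with ulipristal and 12595 with vehicle. Among them Tcf21, a transcription factor of stromal cells, was past 2-fold at 1193 with ulipristal and 538 with vehicle, and 4 of the 15 listed genes (Dcn, Dpt, Fbln1 and Lum) also stand in the list of matrix partners. Oviduct markers had 8 of 8 measured members above 0 and a median of 1.29. Ovgp1 alone read 5642 with ulipristal and 3641 with vehicle, and the other 7 measured members summed to 714.0 with ulipristal and 298 with vehicle. Past 2-fold among them were Foxj1, the regulator of motile cilia, with a log2 ratio of 1.98, Cdhr4 (1.86), Ccdc39 (1.41), Tmem212 (1.40), Wfdc2 (1.18) and Tppp3 (1.16). The vehicle signals of Foxj1, Ccdc39 and Cdhr4 lay under the filter signal of 30.8, as did those of Tie1 and Cidec below, so these genes counted as measured only through the ulipristal array and had to be higher there. Surface epithelium markers had 11 of 12 above 0, with a median of 0.67, sums of 2891 with ulipristal and 2063 with vehicle, and the epithelial adhesion gene Epcam past 2-fold (1.32). Endothelial markers had 12 of 14 above 0, with a median of 0.37, sums of 4054 with ulipristal and 3303 with vehicle, and Tie1 (1.63) and Pecam1 (1.01) past 2-fold. Adipose markers had 5 of 7 above 0, with a median of 0.42, sums of 9359 with ulipristal and 7740.0 with vehicle, and Cidec past 2-fold (1.24). Smooth muscle and pericyte markers had 10 of 14 above 0, with a median of 0.19 and sums of 20872 with ulipristal and 19157 with vehicle, and ran from -0.61 for Kcnj8 to 0.78 for Cnn1. Granulosa markers had 9 of 14 above 0, a median of 0.19 and 4 members past 2-fold, the hormone subunits Inhbb (1.44) and Inhba (1.39) and the receptors Esr2 (1.19) and Fshr (1.18), with sums of 20436 with ulipristal and 16458 with vehicle. Theca and interstitial markers had 6 of 8 above 0, a median of 0.25 and sums of 36863 with ulipristal and 34916 with vehicle, with Fabp3 (1.32) and Tcf21 past 2-fold higher and Hhip, an inhibitor of hedgehog ligands, past 2-fold lower (-2.22). Macrophage markers had 9 of 11 above 0, a median of 0.20, sums of 2304 with ulipristal and 1958 with vehicle, and C1qc past 2-fold (1.02). Oocyte markers had 9 of 11 above 0, a median of 0.14 and sums of 2546 with ulipristal and 2279 with vehicle, from -0.28 for Oosp1 to 0.70 for Mos. Of 9 cartilage markers 2 were measured, Sox9 (0.05) and Cnmd (0.39), with sums over the list of 870.1 with ulipristal and 663 with vehicle, while the cartilage collagen Col2a1 was near 0 at 0.79 with ulipristal and 1.10 with vehicle. The part of these cell types in the collagen ratios was not tested.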

How the data were processed

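Whole-ovary RNA, 100 ng per sample, was profiled on 2 arrays, 1 with ulipristal and 1 with vehicle, and samples were grouped by their treatment label. The deposited intensity values are probe set signals on a linear scale. MAS5, which combines the probes of a set into 1 signal, is named in the submitters' processing notes, as is version 1 of Expression Console. Both arrays had the same trimmed mean, as after a global scaling. No replicates exist, so precision is limited by the number of arrays and no test was made. No build is given in these sources.

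By the platform annotation, 34945 of the 45101 probe sets named 1 gene, 932 named several, 9160 named none and 64 were controls. RefSeq held all 42 collagen gene identifiers under the same symbol. Signals under 7.17, the 25th percentile, were raised to that floor, and the vehicle's log2 value was subtracted from the ulipristal one. Type IV was taken as basement membrane, and every type that is neither fibrillar, type IV nor FACIT as other. Every measured collagen gene is named, and of each other list the members past 2-fold, or else the highest and the lowest ratio, with 3 exceptions marked in the text. The members, types and lists were chosen with earlier results of these data known. Steps were tested on simulated arrays. Alternatives concerned normalization, floor, filter, pseudocount, the choice of probe set and the assignment to types. Lowess came from statsmodels 0.14.6, figures from matplotlib 3.10.9 and the rest from Python 3.11.15 with pandas 2.3.3 and numpy 2.4.6.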

Additional observations from a re-analysis of the deposited data

How the results depend on the processing

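Of the 288 values that the alternatives gave for single measured collagen genes, 279 moved by less than 0.26, the median SD between probe sets. Much of that count was fixed in advance, so it does not measure robustness. Changing the floor or filter, or leaving out probe sets whose design can bind other transcripts, left these values unchanged. Median centring lowered each by 0.13, which is under 0.26. Of the 30 genes 22 kept their sign throughout, and the share of all genes that did so is not given. The number at least 1.5-fold higher, 8, was 5 after centring each array on its median (7.98% of all genes), 3 with the filter at the 75th percentile (5.89%), 3 with 50 added to every signal (4.84%) and 13 with no filter (14.9%), against 12.3% of all genes before. The number at least 1.5-fold lower was 2, against 4.58% of all genes. It was 1 with the filter at the 75th percentile (4.09%), 1 with 50 added (2.73%) and 1 with the median over probe sets (4.25%). With no filter it was 3, with Col9a1 added (6.89%). The number past 2-fold higher was 1, against 3.34% of all genes. It was 0 after median centring (2.20%), quantile normalization (2.35%) or lowess centring (2.30%). With the higher filter (0.822%) or 50 added (0.475%) it was also 0. With no filter it was 2 (Col5a3 and Col24a1, 5.63%), as with the median over probe sets (Col5a3 and Col1a1, 3.19%). The FACIT median, 0.64, was -0.10 with the higher filter, where Col14a1 and Col20a1 were no longer measured, and the median of the other types, 0.43, was 0.16 with no filter. The median over all collagen genes ran from 0.17 after median centring to 0.39 with the median over probe sets, while that over all genes was -0.04 after median centring, 0.13 lower than before. After that centring 17 of 30 collagen genes were above 0, against 45.4% of all genes. Counting Col7a1, Col15a1 and Col18a1 as basement membrane gave medians of 0.38 for basement membrane and 0.47 for the rest. Of all genes past 2-fold, 68.2% were higher, against 51.4% after median centring, 57.3% after quantile normalization, 36.5% with the higher filter and 35.5% with 50 added. No paired analysis was possible because each treatment had 1 sample. Low signal, near the filter, limits the readings of Col5a3, Col4a6, Col13a1 and Col26a1.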

Other observations

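Several collagen genes lie side by side on their chromosomes, in the order of protein-coding genes in RefSeq (GRCm38.p6, used for order only). Col3a1 and Col5a2, both fibrillar, had log2 ratios of 0.08 and 0.12. Col4a1 and Col4a2 had -0.25 and -0.27, Col4a5 and Col4a6 had 0.43 and 0.64, and Col6a1 and Col6a2 had 0.83 and 0.55. The neighbours Col4a3 and Col4a4 had -0.09 and 0.40, of opposite sign. These are values of 2 arrays on representative probe sets.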
